A study of Mus musculus with 12 samples.

Results

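Cells build cholesterol and fatty acids through enzyme chains whose genes are switched on together, and 32 of these genes were followed here in RNA from mouse bone marrow cells sorted as endothelial cells. The genes were given by symbol and matched to Ensembl gene identifiers in a table of 55421 genes. All 32 were found, and all 32 were among the 15999 genes with enough counts to be tested. They comprised 8 genes of the mevalonate pathway, 11 genes for the steps from squalene to cholesterol, 7 genes for SREBP regulation and sterol transport, and 6 genes for fatty acid synthesis. The first 2 classes together are called the 19 sterol enzyme genes below.

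Each of the 12 mice gave 1 library, and there were 3 mice in each of 4 groups. Control mice were naive C57BL/6J animals. Mice with hypertension were of the same strain and received angiotensin II (Ang-II), a peptide that raises blood pressure, for 8 weeks. Mice with atherosclerosis carried the Apoe(tm1Unc) allele, which removes apolipoprotein E, a carrier that clears cholesterol-rich particles from blood, and ate a western diet for 10 weeks. Mice with myocardial infarction (MI) were C57BL/6J animals with a permanently ligated coronary artery, and the labels give day 2 after MI where the text of the study gives day 4. The labelled age was 20 weeks in every group. The atherosclerosis group differed from controls in both genotype and diet, and the effects of these cannot be told apart. The same 3 controls served in every comparison with a disease group, and the replicates in each group are numbered 2, 3 and 4.

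In sterol synthesis, acetyl-CoA is turned into mevalonate and isoprenoid units, which are joined to squalene, and squalene is closed and trimmed to cholesterol. The transcription factor SREBP2, encoded by *Srebf2*, switches on most of these genes when membrane cholesterol is low. Its precursor is carried by SCAP from the endoplasmic reticulum to the Golgi, where the site-1 and site-2 proteases release the active part, and the INSIG proteins hold the complex back when sterols are plentiful. Fatty acid synthesis genes share this control in part, and the stearoyl-CoA desaturase genes *Scd1* and *Scd2* are also known targets of the liver X receptors, which sense oxysterols.

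The promoters of 4 genes are shown as examples. These genes had lower levels in every library of mice with atherosclerosis than in every control. They were picked from the genes with this pattern because they show the kinds of element known to carry SREBP and its partners. The sequences were taken from RefSeq (GRCm38.p6) and run from 250 bases before to 50 bases after the annotated start. Capitals mark TCACNCCA or CACNCCAC, patterns of the sterol regulatory element, and CCAAT, the element of NF-Y, on either strand (CCAAT reads ATTGG on the other strand). The 2 sterol patterns overlap in their letters, and in *Hmgcs1* they formed 1 run.
*Hmgcs1*, chr13:119690101-119690400, plus strand: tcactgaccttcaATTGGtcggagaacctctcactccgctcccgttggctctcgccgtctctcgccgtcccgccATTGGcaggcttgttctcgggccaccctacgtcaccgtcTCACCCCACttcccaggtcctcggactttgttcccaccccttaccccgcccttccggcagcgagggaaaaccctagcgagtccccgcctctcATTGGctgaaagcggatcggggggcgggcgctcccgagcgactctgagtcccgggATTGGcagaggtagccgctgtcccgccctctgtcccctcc
*Mvk*, chr5:114444019-114444318, plus strand: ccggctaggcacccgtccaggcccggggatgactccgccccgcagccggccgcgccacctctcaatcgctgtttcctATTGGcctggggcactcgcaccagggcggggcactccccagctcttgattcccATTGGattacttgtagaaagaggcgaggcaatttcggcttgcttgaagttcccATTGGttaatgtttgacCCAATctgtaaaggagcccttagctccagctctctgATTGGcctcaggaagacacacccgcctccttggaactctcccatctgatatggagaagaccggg
*Msmo1*, chr8:64733529-64733828, minus strand: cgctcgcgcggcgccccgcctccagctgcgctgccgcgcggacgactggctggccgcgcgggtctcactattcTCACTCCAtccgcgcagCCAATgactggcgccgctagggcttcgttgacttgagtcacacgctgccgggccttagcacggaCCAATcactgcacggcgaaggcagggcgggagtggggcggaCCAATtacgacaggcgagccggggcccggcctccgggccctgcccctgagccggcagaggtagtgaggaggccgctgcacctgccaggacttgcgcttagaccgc
*Srebf2*, chr15:82147019-82147318, plus strand: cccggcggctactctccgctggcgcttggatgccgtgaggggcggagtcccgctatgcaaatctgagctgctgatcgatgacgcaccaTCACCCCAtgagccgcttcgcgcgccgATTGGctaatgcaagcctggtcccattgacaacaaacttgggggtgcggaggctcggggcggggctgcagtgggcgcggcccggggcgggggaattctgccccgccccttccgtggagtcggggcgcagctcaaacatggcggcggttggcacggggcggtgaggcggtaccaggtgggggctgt

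A promoter was found for 26 of the 32 genes. Those not matched were *Fdps*, *Fdft1*, *Sqle*, *Stard4*, *Scd1* and *Scd2*. On either strand, TCACNCCA was present in 3 of the 26 genes (11.5%) and in 4.97% of all 27025 genes with a promoter, and CACNCCAC in 3 of 26 (11.5%) and in 7.12% of all genes. Together the 2 sterol patterns were found in *Acat2*, *Hmgcs1*, *Msmo1*, *Insig1* and *Srebf2*, which makes 5 of 26 (19.2%) beside 10.4% of all genes. CCAAT was present in 20 of 26 (76.9%), of which 15 were among the 16 sterol enzyme genes with a promoter, beside 41.1% of all genes. GGGCGG, the element of SP1, was present in 20 of 26 (76.9%) beside 38.2% of all genes. In *Mvk*, CCAAT was found 5 times and neither sterol pattern was found. Neither sterol pattern was found in *Cyp51*, *Ebp*, *Pmvk* or *Sc5d*, which also had lower levels in every atherosclerosis library than in every control. The 27025 genes include genes without enough counts to be tested here, whereas all 32 genes were tested, so these shares are not matched for expression. These matches describe letters in a window of 300 bases and no binding was measured.

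Sequencing depth was similar in all groups, with 17007088 to 25136936 counts per library, and across genes, which are no independent replicates, any 2 libraries had a Pearson's r of 0.939 to 0.988. Levels are given as CPM, the counts of a gene relative to the TMM-scaled library total. Levels of *Apoe* and of cell type markers, and sums of markers, are relative to the unscaled library total. *Apoe* was at 6.85 to 15.6 CPM in the 3 atherosclerosis libraries and at 463 to 1400 CPM in the other 9, which matches the labelled genotype. The sorted gate (TER-119- CD41- CD45- CD31hi SCA-1+) should hold endothelial cells, but 24 endothelial marker genes summed to only 206 to 385 CPM, and *Cdh5*, which defines the endothelial lineage, was at 2.01 to 4.30 CPM. Markers of neutrophils (13 genes) summed to 35397 to 92962 CPM and those of erythroid cells (15 genes) to 12707 to 45831 CPM. The marker levels go against a pure endothelial sample, and the values below describe RNA of the sorted material as a whole. In such bulk RNA, fewer cells of a type and less RNA per cell cannot be told apart. P values set a difference between groups against the spread between mice, which was estimated over all 12 libraries.

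Per kilobase of annotated exon, the scale on which genes can be compared, the 32 genes covered a wide range. *Ebp*, a sterol isomerase, was at the top with a control mean of 35.8 ± 2.22 CPM per kilobase (SD, n = 3), followed by *Acly*, which makes cytosolic acetyl-CoA, at 24.9 ± 2.93 and *Pmvk*, a mevalonate pathway kinase, at 19.9 ± 0.512. *Scd2* had 13.3 ± 1.95 and *Scd1* 3.83 ± 0.33 CPM per kilobase in controls, so the former was the higher of these 2 transcripts. At the low end were *Mbtps2*, the site-2 protease, at 0.678 ± 0.168, *Acaca*, acetyl-CoA carboxylase, at 0.396 ± 0.0207, and *Idi1*, isopentenyl diphosphate isomerase, at 0.372 ± 0.131 CPM per kilobase. *Srebf2* was in the middle with 5.57 ± 0.569.

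**Figure D1:**
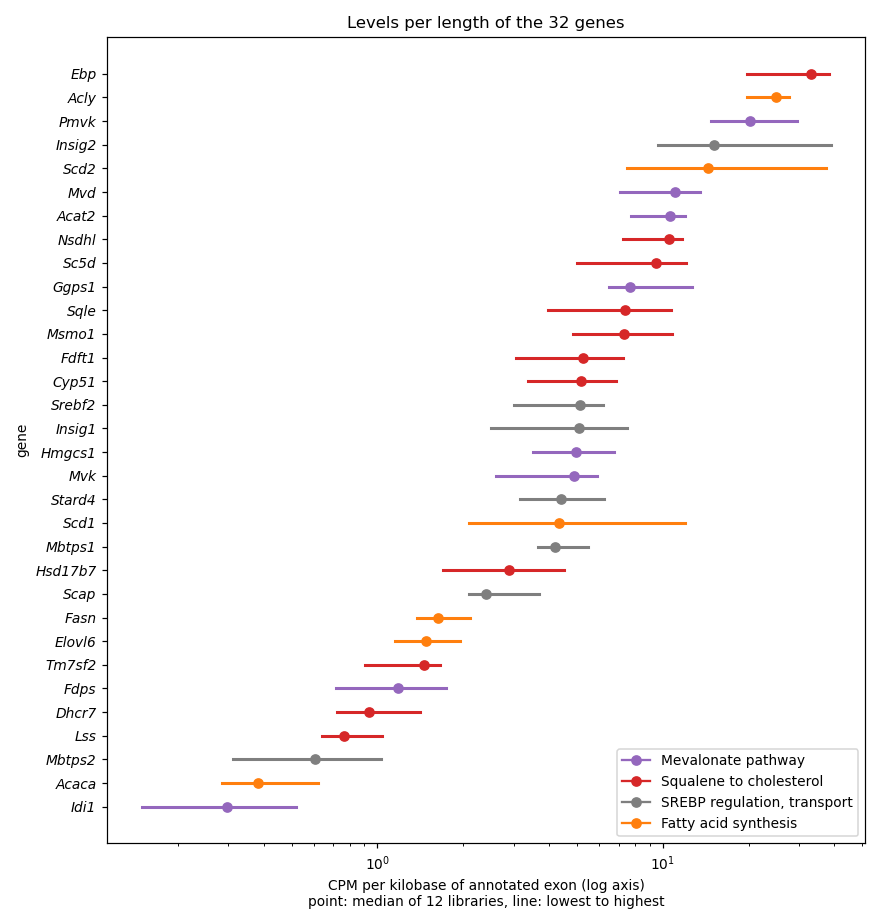
Levels of the 32 genes per kilobase of annotated exon (CPM per kilobase, log axis), with the median of all 12 libraries as a point, the lowest and highest library as a line and the gene class as color. *Ebp* and *Acly* sit at the top, *Acaca* and *Idi1* at the bottom, and *Scd1*, *Scd2* and *Insig2* have wide lines.

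Some of these levels are uncertain because reads are shared with other genes. Of the 50-base stretches of *Acat2*, 39.1% also occur in other genes, chiefly *Acat3*. The same was true of 30.4% of *Acaca* (a pseudogene), 28.9% of *Mbtps2* (chiefly *Yy2*, on the same strand), 26.2% of *Fdps* and 25.3% of *Idi1*. *Fdft1*, squalene synthase, overlaps the lysosomal protease gene *Ctsb* on the opposite strand over 18.3% of its exon bases, and *Hmgcs1* overlaps an antisense transcript over 12.1%. The sources used here do not state which strand column of the counts was deposited, so reads from these pairs may not be separable. *Scd1* and *Scd2* shared only 4.56% and 3.97% of their 50-base stretches with other genes, chiefly *Scd3*.

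The replicate mice resembled each other in these genes about as well as in all genes. The median coefficient of variation over the 32 genes was 11.2% in controls, 11.8% in hypertension, 21.8% in atherosclerosis and 16.8% in MI, where all genes tested had 15%, 14.9%, 25.3% and 18.6%. *Insig2* was the most variable member in hypertension (43.1%) and in atherosclerosis (81%). Library 2 of the atherosclerosis group had the lowest mean correlation with the other 11 libraries (r = 0.960).

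**Figure D2:**
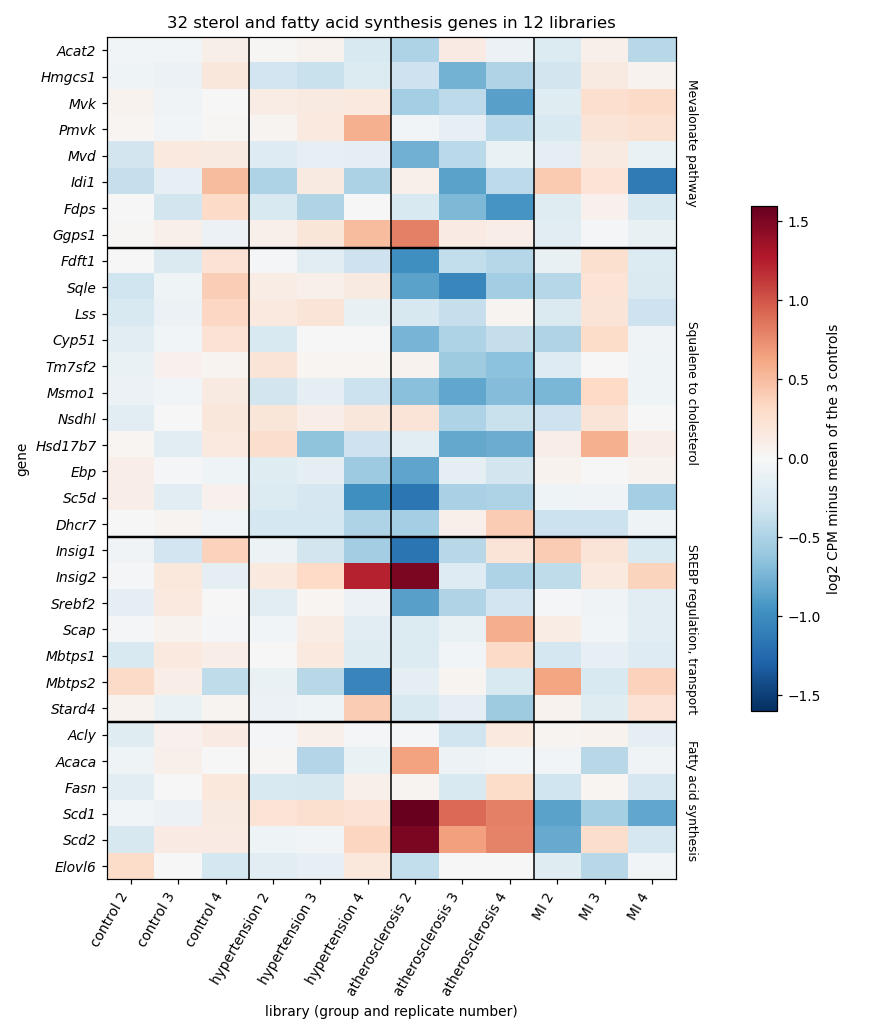
Log2 CPM of each of the 32 genes (rows, grouped by role) in each of the 12 libraries (columns) minus the mean of the 3 controls, in red where higher and in blue where lower. Blue prevails in the sterol enzyme rows of the 3 atherosclerosis columns, whereas *Scd1* and *Scd2* are red there and *Scd1* is blue in the 3 MI columns.

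In atherosclerosis, the desaturase gene *Scd1* rose and most sterol enzyme genes had lower levels than in controls. *Scd1* was the single member to pass the test over all genes, with 2.25-fold higher expression. Of the 19 sterol enzyme genes, 17 (89.5%) had a negative log2 fold change, beside 48.1% of all genes. Their median was -0.43, but none passed an adjusted p of 0.05. The smallest adjusted p among them was 0.306 (*Sqle*, edgeR, quasi-likelihood, adjusted by Benjamini and Hochberg's method over the 15999 genes). The call of 1 member stands beside 0.144% of all genes called (23 of 15999).

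SCD1 puts the first double bond into stearoyl-CoA and is the main desaturase of liver. *Scd1* was at 18.1, 17.5 and 20.6 CPM in the 3 controls and at 58.6, 35.2 and 32.6 CPM in the 3 atherosclerosis libraries. All 3 atherosclerosis libraries were above all controls, and library 2 was the highest. The log2 fold change was 1.17 ± 0.20 (SE, edgeR adjusted p = 0.0482). The exact two-sided permutation test gave p = 0.1, the smallest that 3 against 3 libraries allow. Without library 2 of atherosclerosis the log2 fold change was 0.87 and still passed. The call was lost in 9 of 19 alternative settings, among them the fit to only the 2 groups (adjusted p = 0.309) and the removal of any 1 of the 3 controls or of atherosclerosis library 3, while the log2 fold change stayed between 0.78 and 1.32.

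*Scd2*, the paralog that neighbors *Scd1* on chromosome 19 and prevails outside the liver, had a similar pattern without passing the test. It was at 60.2, 78.6 and 78.7 CPM in controls and at 204, 113 and 124 CPM in atherosclerosis. The groups did not overlap, and library 2 was again the highest. The log2 fold change was 1.02 ± 0.28 (SE) with an edgeR adjusted p of 0.384. *Scd1* and *Scd2* were also higher in every atherosclerosis library than in any of the other 9 libraries, a pattern found in 1.48% of all genes tested. The other 4 fatty acid synthesis genes, *Acly*, *Acaca*, *Fasn* and *Elovl6*, had log2 fold changes of -0.14 to 0.21, and their groups overlapped.

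**Figure D3:**
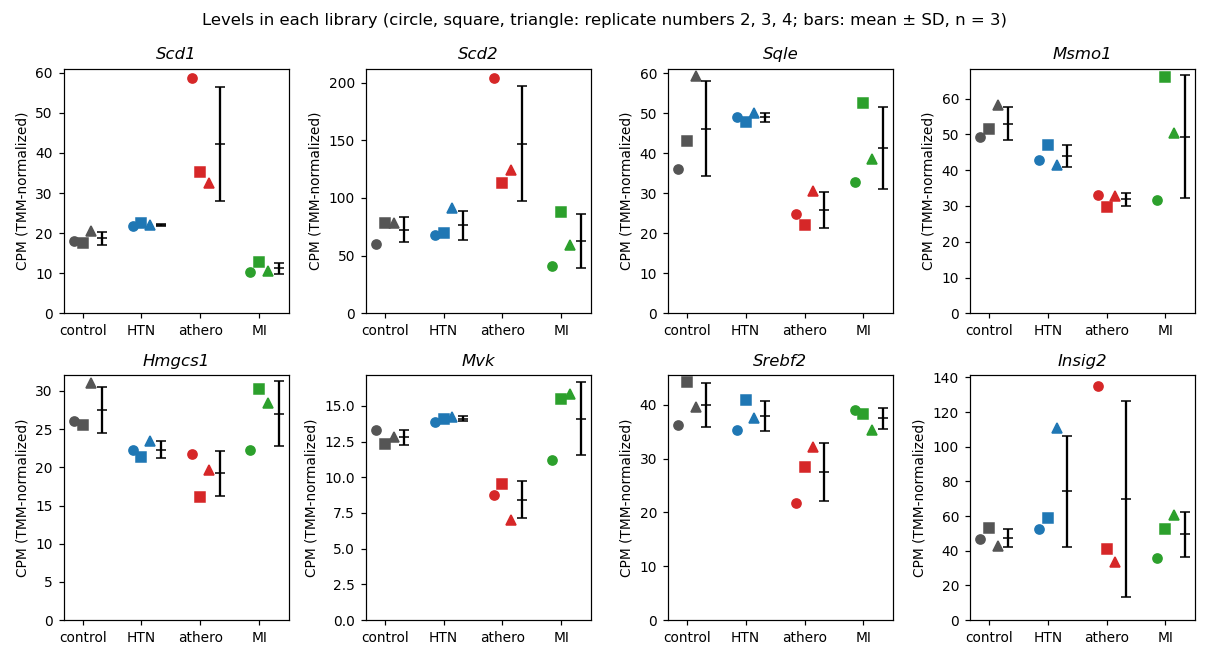
CPM of 8 of the genes in each library (circle, square and triangle are replicates 2, 3 and 4, and bars give the mean ± SD of 3 mice), with hypertension shortened to HTN and atherosclerosis to athero. *Scd1* and *Scd2* are higher in atherosclerosis than in all other libraries, *Sqle*, *Mvk* and *Srebf2* are lower there, and *Insig2* is spread by single high libraries.

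Among the sterol enzyme genes, *Sqle* had the smallest p. It encodes squalene epoxidase, which catalyzes the first oxygen-dependent and a rate-limiting step after squalene. *Sqle* was at 36.2, 43.2 and 59.3 CPM in controls and at 24.8, 22 and 30.7 CPM in atherosclerosis. All 3 atherosclerosis libraries were below all controls and also below all hypertension and MI libraries. The log2 fold change was -0.84 ± 0.21 (SE, edgeR adjusted p = 0.306, unadjusted p = 0.00161).

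*Msmo1*, a sterol C4-methyl oxidase, was at 49.4, 51.4 and 58.2 CPM in controls and at 33.1, 29.8 and 32.7 CPM in atherosclerosis. These 2 groups did not overlap and were both tight. The log2 fold change was -0.73 ± 0.21 (SE, edgeR adjusted p = 0.419, unadjusted p = 0.00387).

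Across the whole set, 12 of 32 genes (37.5%) were lower in atherosclerosis at an unadjusted p under 0.05, whereas 2% of all genes tested were. They were *Hmgcs1*, *Mvk*, *Mvd* and *Fdps* of the mevalonate pathway, *Fdft1*, *Sqle*, *Cyp51*, *Msmo1*, *Hsd17b7*, *Ebp* and *Sc5d* of the squalene to cholesterol steps, and *Srebf2*. At the same threshold 2 of 32 (6.25%) were higher, *Scd1* and *Scd2*, beside 3.97% of all genes. Counted without a model, 11 of 32 (34.4%) were lower in every atherosclerosis library than in every control, beside 4.45% of all genes, and 3 (9.38%) were higher, *Ggps1*, *Scd1* and *Scd2*, beside 5.06%. In 4 genes, *Fdft1*, *Mvk*, *Sqle* and *Srebf2*, every atherosclerosis library was below each of the other 9 libraries, which was so in 0.775% of all genes. The median log2 fold change was -0.26 over the 32 genes and 0.01 over all genes tested. The count of 12 depended on which mice were used, and was 6 without control 4, in which most sterol enzyme genes were high, and 11 without atherosclerosis library 2.

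The mevalonate pathway genes supplied 7 of the 17 negative values. *Hmgcs1*, which makes HMG-CoA, was at 25.5 to 31 CPM in controls and at 16.1 to 21.8 CPM in atherosclerosis, and *Mvk*, mevalonate kinase, at 12.3 to 13.3 and 6.98 to 9.51 CPM. Neither pair of ranges overlapped. *Pmvk* also had lower levels in every atherosclerosis library, but by a log2 fold change of only -0.20. *Ggps1* was the exception, with a log2 fold change of 0.39 ± 0.19 (SE, edgeR adjusted p = 0.849). It was at 34.8, 36.2 and 32.2 CPM in controls and at 60.1, 37.6 and 37 CPM in atherosclerosis, where library 2 was far above the rest. Its product makes geranylgeranyl diphosphate for protein prenylation, a branch that leaves the path to cholesterol. *Idi1* had as few as 9 counts in a library, which leaves its log2 fold change of -0.43 ± 0.45 (SE) within error.

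Among the squalene to cholesterol genes, 10 of 11 genes had negative log2 fold changes, between -0.84 and -0.19, and only *Dhcr7*, the final reductase, had a value near 0 (0.03 ± 0.24, SE). *Cyp51*, lanosterol demethylase, was at 21.9 to 29.2 CPM in controls and at 14.9 to 19.1 CPM in atherosclerosis. *Sc5d*, sterol C5-desaturase, was at 48.2 to 58.9 and 24.3 to 38.4 CPM, and *Ebp* at 78.7 to 88.5 and 45.7 to 74.2 CPM. None of these ranges overlapped. *Lss*, *Tm7sf2*, *Nsdhl* and *Hsd17b7* had overlapping groups.

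Of the regulators, *Srebf2* itself was lower, at 36.2 to 44.3 CPM in controls and at 21.7 to 32.2 CPM in atherosclerosis, with a log2 fold change of -0.54 ± 0.16 (SE, edgeR adjusted p = 0.445). *Stard4*, a cytosolic sterol carrier, was at 24.3 to 27.3 CPM in controls and 17.6 to 23.6 CPM in atherosclerosis, also without overlap. *Scap* and *Mbtps1*, the escort and the site-1 protease, had log2 fold changes of 0.13 and 0.02. *Insig1* overlapped between groups (14.1 to 22.7 CPM and 7.74 to 20.3 CPM). *Insig2*, whose group mean was higher, was at 135 CPM in atherosclerosis library 2, above the control range of 42.7 to 53.1 CPM. In the other 2 it was at 40.8 and 33.5 CPM, below that range.

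The median deviation of the 19 sterol enzyme genes from the control mean was -0.49, -0.49 and -0.43 on the log2 scale in the 3 atherosclerosis libraries, with 15, 16 and 16 of the 19 below it. In the 3 controls it was -0.05, -0.05 and 0.14, in hypertension -0.02, 0.01 and -0.16, and in MI -0.21, 0.20 and -0.07. The atherosclerosis libraries thus lay below the other 9, while the median over all genes was between -0.02 and 0.01 in every library. Summed over the 19 genes, the level was 384, 393 and 399 CPM in atherosclerosis, 498 to 560 CPM in controls, 471 to 492 CPM in hypertension and 445 to 573 CPM in MI.

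**Figure D4:**
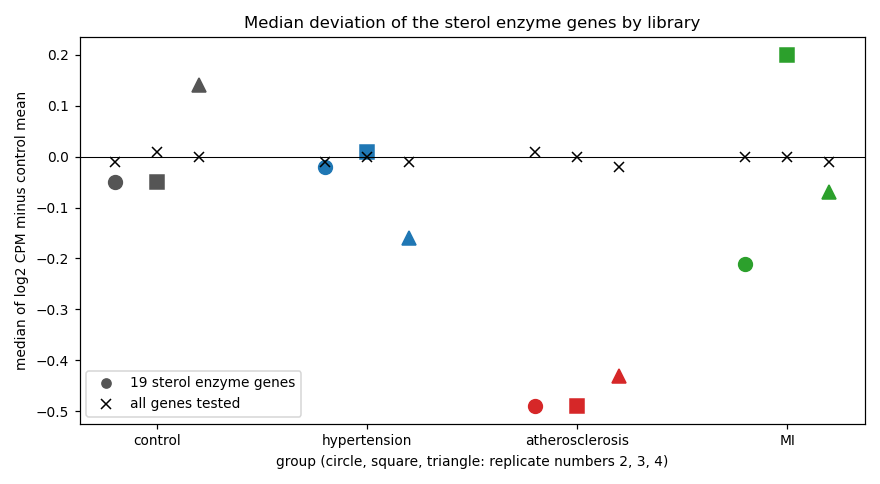
Median over the 19 sterol enzyme genes of log2 CPM minus the control mean, for each library (filled marks, by group), and the same median over all genes tested (crosses). The 3 atherosclerosis libraries lie between -0.49 and -0.43, below the other 9, and the crosses stay near 0.

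Markers of other cells moved with this group. The 14 macrophage markers all had positive log2 fold changes in atherosclerosis (median 0.74), of which 1, *C1qa*, passed (log2 fold change 0.97, edgeR adjusted p = 0.0342), and their sum was 1943 to 2556 CPM, above the controls at 1516 to 1893 CPM. In hypertension the macrophage sum was 1862 to 2421 CPM and in MI 1531 to 1870 CPM. With the macrophage sum as a covariate the median of the sterol enzyme genes was -0.64, and *Scd1* had a log2 fold change of 0.78 and *Scd2* of 0.49, both with an adjusted p of 1 in edgeR. Of 13 neutrophil markers, 0 had a positive log2 fold change (median -0.40), and their sums were 35397 to 70132 CPM in atherosclerosis and 61069 to 80379 CPM in controls, which overlap. With the neutrophil sum as a covariate the median of the sterol enzyme genes was -0.49 and *Scd1* had 0.91 (edgeR adjusted p = 0.17) and *Scd2* 0.57 (adjusted p = 0.692). All 15 erythroid markers had positive log2 fold changes (median 0.36), with sums of 12707 to 45831 CPM in atherosclerosis around those of the controls, and with this sum as a covariate the sterol enzyme median was -0.47. Of 8 adipocyte markers tested, 7 had positive log2 fold changes in atherosclerosis (median 0.28, 0 called), and the sum of all 13 was 80 to 147 CPM, which overlaps the controls at 90 to 103 CPM. Among them *Lep* was at 0 in all libraries, *Plin1* at 0 to 0.0916 CPM and *Adipoq*, also made by marrow stroma, at 2.01 to 6.91 CPM. The macrophage sums of atherosclerosis and controls did not overlap, so that covariate cannot be fully told apart from the group. The part of macrophage, neutrophil, erythroid or adipocyte RNA in the result was not tested.

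Other genes of lipid metabolism, from 3 lists, mostly did not pass. Among 34 tested genes of the wider SREBP and sterol handling list, 1 rose and 0 fell at an adjusted p under 0.05, beside 0.144% of all genes called. At an unadjusted p under 0.05, 4 were higher, beside 3.97% of all genes, and 3 were lower, beside 2%. The gene that passed was *Abca1*, which exports cholesterol to apolipoproteins. It was at 7.23, 8.72 and 9.62 CPM in controls and at 31.7, 26 and 29.4 CPM in atherosclerosis, far apart, with a log2 fold change of 1.77 ± 0.22 (SE, edgeR adjusted p = 0.0083). *Abcg1*, the companion exporter, was at 30.3, 46.5 and 34.1 CPM in controls and at 325, 70.1 and 70.9 CPM in atherosclerosis, all higher but 1 library far above the rest (log2 fold change 2.07 ± 0.55, adjusted p = 0.344). Of 26 further fatty acid and triglyceride genes 0 passed, and *Lpin1*, a phosphatidate phosphatase, had the smallest p (log2 fold change 0.61 ± 0.18, adjusted p = 0.485). Of 16 genes of the other isoprenoid branches 0 passed, and at an unadjusted p under 0.05 there were 0 in either direction. The medians of these 3 lists were 0.07, 0.07 and -0.03.

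In hypertension, no change of the 32 genes was detected. The median log2 fold change was -0.07 over the set and -0.01 over all genes, with 20 genes lower and 12 higher, and 0 passed an adjusted p of 0.05 (background 0%). Of the 19 sterol enzyme genes, 12 (63.2%) were lower, with a median of -0.18, beside 51.9% of all genes. At an unadjusted p under 0.05 there were 0 lower and 0 higher members, beside 1.63% and 2.08% of all genes, and edgeR's likelihood-ratio test and DESeq2 also called 0. In 5 of 32 (15.6%), *Dhcr7*, *Ebp*, *Hmgcs1*, *Msmo1* and *Sc5d*, every hypertension library was below every control, beside 7.81% of all genes. In 4 (12.5%), *Ggps1*, *Mvk*, *Pmvk* and *Scd1*, every library was above, beside 9.02%.

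The 4 genes with the smallest p were *Sc5d*, *Hmgcs1*, *Mbtps2* and *Ebp*. *Sc5d* was at 58.9, 48.2 and 57.1 CPM in controls and at 46.8, 45.1 and 27.5 CPM in hypertension, where library 4 was far below the rest (log2 fold change -0.46 ± 0.23, SE, edgeR adjusted p = 0.951). *Hmgcs1* was at 26.1, 25.5 and 31 CPM in controls and at 22.2, 21.3 and 23.5 CPM in hypertension (log2 fold change -0.30 ± 0.16, adjusted p = 0.951). Its groups were close but did not overlap.

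*Mbtps2* was at 8.35, 7.2 and 5 CPM in controls and at 6.22, 4.9 and 3.15 CPM in hypertension, which overlap (log2 fold change -0.52 ± 0.30, SE, edgeR adjusted p = 0.951). *Ebp* was at 88.5, 80.8 and 78.7 CPM in controls and at 72, 73.7 and 55.3 CPM in hypertension (log2 fold change -0.30 ± 0.18, adjusted p = 0.951). As with *Sc5d*, library 4 of hypertension was the lowest, and without it the values were -0.25 for *Sc5d*, -0.29 for *Mbtps2* and -0.18 for *Ebp*. *Scd1* was tight at 21.8, 22.4 and 21.9 CPM, with a log2 fold change of 0.23. *Insig2* was at 111 CPM in hypertension library 4 and at 52.7 and 59.1 CPM in the other 2. Neutrophil markers summed to 38695 to 55229 CPM in hypertension, all below the controls, and monocyte markers to 4872 to 6542 CPM against 6813 to 8960 CPM. With the neutrophil sum as a covariate the log2 fold change was -0.07 for *Sc5d*, -0.20 for *Mbtps2*, -0.01 for *Ebp* and -0.53 for *Hmgcs1*, and 15 of the 32 genes had the other sign. The neutrophil sums of hypertension and controls did not overlap, so this covariate cannot be fully told apart from the group. The part of neutrophil or monocyte RNA was not tested.

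After MI, the sterol enzyme genes were close to control levels and *Scd1* had the smallest p, in the direction opposite to atherosclerosis. None of the 32 genes passed an adjusted p of 0.05 (0 called, background 0%), and the likelihood-ratio test and DESeq2 also called 0. At an unadjusted p under 0.05, 1 of 32 (3.12%) was lower, *Scd1*, beside 1.57% of all genes, and 0 were higher, beside 1.23%. Every MI library was below every control in 2 of 32 (6.25%), *Dhcr7* and *Scd1*, beside 4.59% of all genes, and above in 0, beside 4.27%. The median log2 fold change was -0.09 over the 32 genes and 0 over all genes, with 24 lower and 8 higher. Of the 19 sterol enzyme genes, 15 (78.9%) were lower, beside 50% of all genes, but their median was only -0.09. With the sum of 28 cell cycle markers as a covariate only 5 of the 19 were lower, and 14 of the 32 genes had the other sign. Without control 4 these counts were 6 and 11.

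*Scd1* was at 10.2, 12.9 and 10.5 CPM after MI and at 18.1, 17.5 and 20.6 CPM in controls. The 3 MI values were tight and well below the controls. The log2 fold change was -0.74 ± 0.21 (SE, unadjusted p = 0.0033), but the edgeR adjusted p was 1. Over 19 alternative settings it stayed between -0.86 and -0.47 and passed in 0, with adjusted p values of 0.119 to 1. *Scd2* was at 41, 87.6 and 59.5 CPM after MI, on both sides of the controls.

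The next genes by p were *Mbtps1*, *Elovl6* and *Hsd17b7*, and in each the groups overlapped. *Mbtps1* was at 38.3, 42.8 and 40.3 CPM after MI and at 39.2, 51.8 and 50.1 CPM in controls (log2 fold change -0.22 ± 0.17, SE, edgeR adjusted p = 1). *Elovl6*, which elongates palmitate, was at 8.89, 7.41 and 9.79 CPM after MI and at 12.4, 10.1 and 8.38 CPM in controls (log2 fold change -0.24 ± 0.21, adjusted p = 1).

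*Hsd17b7*, a sterol ketoreductase, was at 16.6, 23 and 16.7 CPM after MI and at 15.8, 13.6 and 17.1 CPM in controls (log2 fold change 0.27 ± 0.25, SE, edgeR adjusted p = 1). Library 3 of MI supplied most of this difference. The same library had the highest sterol enzyme level of all 12 (573 CPM summed), with *Msmo1* at 66.2 CPM, whereas MI library 2 had *Msmo1* at 31.8 CPM, within the atherosclerosis range. Markers of the B lineage (12 genes) summed to 221 to 536 CPM after MI, below the controls at 569 to 807 CPM. With their sum as a covariate the log2 fold change of *Scd1* was -0.47 (edgeR adjusted p = 0.435). This was the value nearest 0 in the 19 settings, and 10 of the 32 genes had the other sign. The B lineage sums of MI and controls did not overlap, so this covariate cannot be fully told apart from the group. The part of B lineage RNA was not tested.

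**Figure D5:**
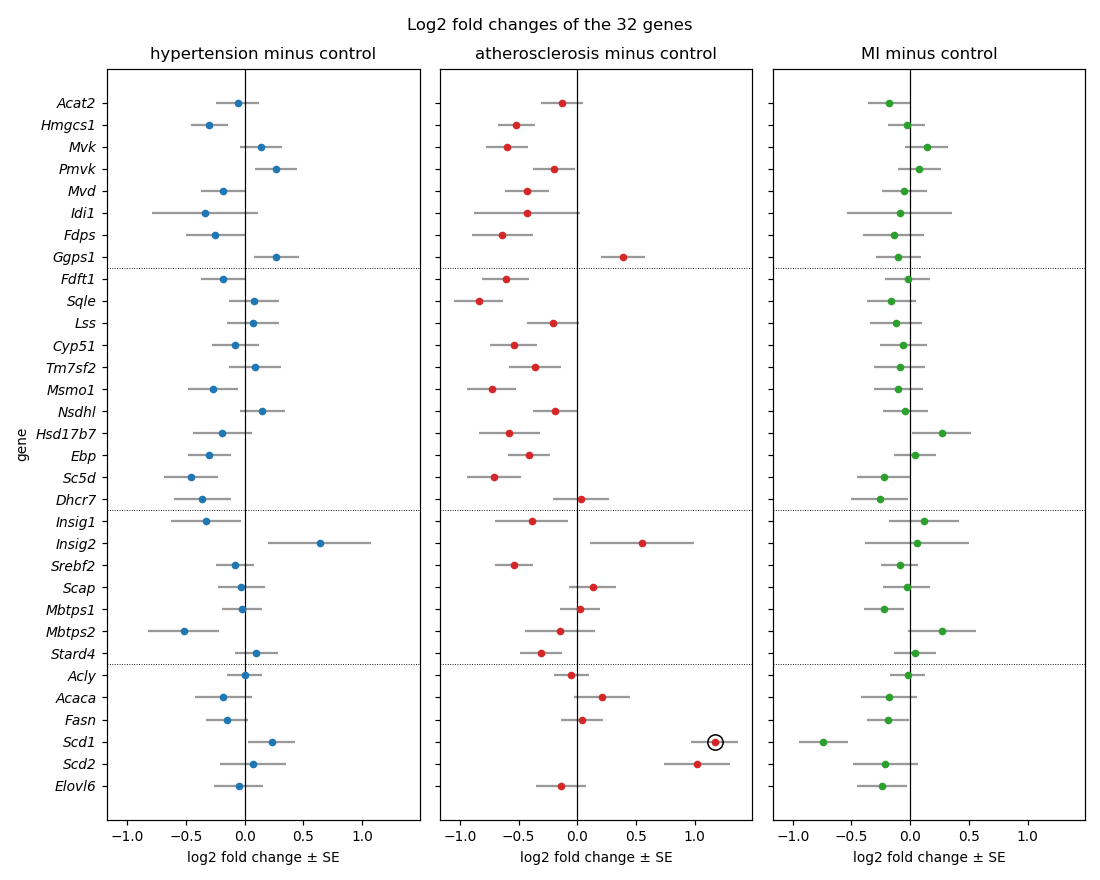
Log2 fold change ± SE of each of the 32 genes against the same 3 controls, in hypertension, atherosclerosis and MI (edgeR, 3 mice a group), with a ring around the value that passed an adjusted p of 0.05. In the atherosclerosis panel most sterol enzyme genes lie left of 0 and *Scd1* (ringed, 1.17) and *Scd2* (1.02) lie right of it, whereas *Scd1* is at -0.74 in the MI panel.

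Direct comparisons between disease groups used the same model. *Scd1* differed most between atherosclerosis and MI: the mean was 42.2 ± 14.3 CPM (SD, n = 3) in atherosclerosis and 11.2 ± 1.46 CPM after MI, a 3.77-fold difference with no overlap (log2 fold change 1.91 ± 0.21, SE, edgeR adjusted p = 0.00307). It was 1 of 32 members called (3.12%), beside 0.269% of all genes, and ranked 2 among all genes by p. It passed in 16 of 19 alternative settings, with a log2 fold change between 1.50 and 2.06. The exceptions were the cell cycle covariate (adjusted p = 0.067), the macrophage covariate (0.222) and the fit to only the 2 groups (0.0679). At an unadjusted p under 0.05, 9 of 32 (28.1%) were lower in atherosclerosis than after MI, beside 5.34% of all genes, and 3 (9.38%) higher, *Ggps1*, *Scd1* and *Scd2*, beside 7.36%. The 9 were *Cyp51*, *Ebp*, *Fdft1*, *Hmgcs1*, *Hsd17b7*, *Msmo1*, *Mvk*, *Sqle* and *Srebf2*.

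Between atherosclerosis and hypertension 0 members passed, beside 0.0625% of all genes. At an unadjusted p under 0.05, 8 of 32 (25%) were lower in atherosclerosis, *Cyp51*, *Fdft1*, *Msmo1*, *Mvk*, *Pmvk*, *Sqle*, *Srebf2* and *Stard4*, beside 2.08% of all genes, and 2 (6.25%) were higher, *Scd1* and *Scd2*, beside 3.86%. The likelihood-ratio test called *Sqle* and *Scd1*, and DESeq2 called *Mvk*, *Sqle* and *Scd1*. The log2 fold change was -0.92 ± 0.21 (SE) for *Sqle* (edgeR adjusted p = 0.238) and 0.94 ± 0.20 for *Scd1* (adjusted p = 0.201). *Mvk* had -0.74 ± 0.18 (adjusted p = 0.287).

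Between MI and hypertension 0 members passed in edgeR (0% of all genes). At an unadjusted p under 0.05, 1 of 32 was lower after MI, *Scd1*, beside 4.23% of all genes, and 1 was higher, *Mbtps2*, beside 4.18%. The likelihood-ratio test called 0 members and DESeq2 called *Scd1*, whose log2 fold change was -0.98 ± 0.21 (SE, edgeR adjusted p = 0.52). *Scd1* thus had the order of group means MI (11.2 ± 1.46 CPM), control (18.7 ± 1.61 CPM), hypertension (22.0 ± 0.306 CPM) and atherosclerosis (42.2 ± 14.3 CPM, each SD, n = 3), with no overlap between neighbors, although of the pairs tested only atherosclerosis with control and with MI passed the test.

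Ranked by group mean, 20 of the 32 genes had their lowest level in atherosclerosis, among them 16 of the 19 sterol enzyme genes. The lowest mean was in MI for 8 genes, in hypertension for 3 and in controls for 1. The highest mean was in controls for 11 genes, in hypertension for 8, in atherosclerosis for 8 and in MI for 5. The span from lowest to highest mean was 3.77-fold for *Scd1*, 2.35-fold for *Scd2*, 1.90-fold for *Sqle* and 1.81-fold for *Hsd17b7*, and 1.04-fold for *Acly*, the steadiest member.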

How the data were processed

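RNA of marrow cells sorted as endothelial cells from 12 mice (4 groups of 3) was sequenced by the authors as strand-specific polyadenylated libraries with single-end reads of 50 bases. The authors aligned the reads to GRCm38.p6 with STAR 2.7.3a and its GeneCounts option (Ensembl release 98) and deposited raw counts per gene, without normalization. Totals of 17007088 to 25136936 counts set the precision, and 3 counts were taken as the smallest measurable amount. Which strand column was deposited is not given in the sources used here. Gene positions and overlaps came from GENCODE release M21 and promoters from RefSeq (GRCm38.p6).

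In R 4.3.3 with edgeR 4.0.16, genes were filtered by filterByExpr, scaled by TMM and fitted with 1 coefficient per group over all 12 libraries (8 residual degrees of freedom, common dispersion 0.0634). The 6 comparisons were tested by the quasi-likelihood test, two-sided, with Benjamini-Hochberg adjustment over 15999 genes. The 32 genes and the lists were chosen with earlier results of these data known, so no test over a list was made. Members are given in full if they passed an adjusted p of 0.05 in any comparison or were among the 4 smallest p of a comparison with controls. Genes of other pathway lists are named only if they passed or were among the 2 smallest p of their list. Genes added to the plot of levels and genes named by other tools were chosen after their values were seen. The group of a library came from its label.

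The steps were first tested on simulated data. For atherosclerosis minus control, 41 of 97 genes with a set log2 change of 1 were called, and 82 of 99 with a change of 2. Of the unchanged genes 2 were called. Changes of the size seen in the sterol enzyme genes can thus be missed by this test. Alternatives were the likelihood-ratio test (named in the study's methods), DESeq2 1.42.0, other scaling and filters, the replicate block, covariates of marker sums, the fit to 2 groups and the removal of each library.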

Additional observations from a re-analysis of the deposited data

Results flagged for a closer look

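*Scd1* drew attention because the difference between 2 disease groups passed the test. Atherosclerosis minus MI gave a log2 fold change of 1.91 (edgeR adjusted p = 0.00307, 3 mice against 3), and it missed the threshold in 3 of 19 alternative settings. Against the same controls *Scd1* had 1.17 in atherosclerosis, with all 3 libraries higher, a call that was lost in 9 of 19 alternative settings. After MI it had -0.74, with all 3 libraries lower, but this did not pass (edgeR adjusted p = 1) in the main result or in any of 19 alternative settings.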

How the results depend on the processing

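Over 19 settings, at least 27 of the 32 genes had the same direction as in the main result in atherosclerosis against control, at least 17 in hypertension and at least 18 after MI. The number lower than in controls was 22 to 27 of 32 (16 to 18 of the 19 sterol enzyme genes) in atherosclerosis, 17 to 24 (10 to 16) in hypertension and 15 to 25 (5 to 15) after MI. Members called stayed at 0 in all 19 for hypertension and MI. Other scaling moved the median of all genes by no more than 0.01. Depth limits *Idi1* most, with 9 counts in its lowest library, and the filter of at least 10 counts in every library removed it and gave median log2 fold changes of -0.20 (atherosclerosis minus control) and -0.28 (atherosclerosis minus MI).

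The likelihood-ratio test called 81 genes in atherosclerosis against control, 1 in MI against control, 70 in atherosclerosis against hypertension, 274 in atherosclerosis against MI and 2 in MI against hypertension, with 2 members in atherosclerosis against hypertension and 3 against MI (*Mvk*, *Scd1*, *Scd2*). DESeq2 called 81, 1, 76, 301 and 22 genes, with 3 members in atherosclerosis against hypertension, 3 against MI and 1 in MI against hypertension. Without a low-count filter 170 genes were called in hypertension, 432 in atherosclerosis, 130 in MI, 235 in atherosclerosis against hypertension, 790 against MI and 422 in MI against hypertension. That setting called 5 members in atherosclerosis against control (*Sqle*, *Msmo1*, *Sc5d*, *Scd1*, *Scd2*), 3 against hypertension (*Sqle*, *Scd1*, *Scd2*), 3 against MI (*Hsd17b7*, *Scd1*, *Scd2*) and 1 in MI against hypertension (*Scd1*). The cause of these differences was not tested. Leaving out immunoglobulin and hemoglobin genes gave 66 genes in atherosclerosis against MI. The fit to only the 2 groups, with fewer libraries, called 4 genes and 0 members in atherosclerosis against control, 3 and 0 against MI, and 1 gene in MI against control.

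With the erythroid sum as a covariate 46 genes and 2 members (*Scd1*, *Scd2*) were called in atherosclerosis against control, 29 and 1 against hypertension and 603 and 5 against MI (*Mvk*, *Fdft1*, *Ebp*, *Scd1*, *Scd2*), and the sterol enzyme median was -0.47. With the neutrophil sum, 1 gene was called in hypertension, 27 in atherosclerosis against hypertension and 18 against MI, 0 members were called in atherosclerosis, and the medians were -0.36 (32 genes) and -0.49 (sterol enzymes) against control and -0.23 against MI. With the cell cycle sum, 12 genes and 0 members were called in atherosclerosis against control, 6 genes against hypertension, and 3 genes and 0 members against MI. The medians were then -0.20 in hypertension, -0.05 in atherosclerosis against hypertension and 0.16 in MI against hypertension. Covariates for macrophage and B lineage sums were chosen after seeing the data. Where a marker sum did not overlap between the groups compared, its covariate cannot be fully told apart from the group. The macrophage sum left 2 genes and 0 members in atherosclerosis against control and 2 and 0 against MI, with medians of -0.32 (32 genes), -0.64 (sterol enzymes), -0.15 in hypertension, -0.28 against hypertension and -0.28 against MI. The B lineage sum gave 39 genes in atherosclerosis against control, 26 against hypertension and 20 against MI, with a median of -0.19 in the last.

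With the replicate block 7 genes and 0 members were called in atherosclerosis against control (*Scd1* 1.15, adjusted p = 0.12) and 22 genes against MI, and the sterol enzyme median was -0.47. Deviations of libraries with the same replicate number correlated with r between -0.28 and 0.30 (5 of 18 pairs over 0.1), and 4 of 12 libraries were most like one of their own number, so the numbers were not taken as pairs.

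Leaving out 1 library at a time, with the 2 remaining libraries assumed to vary like the other groups, gave 2 to 34 genes in atherosclerosis against control (2 without control 3, 34 without atherosclerosis library 2), 3 to 36 against hypertension (without hypertension library 3 and atherosclerosis library 2) and 8 to 93 against MI (without MI library 4 and atherosclerosis library 2). Members called in atherosclerosis were 0 to 1. Members lower at an unadjusted p under 0.05 were 6 (without control 4) to 11, and the sterol enzyme median was -0.57 to -0.41. The median of the 32 genes was -0.14 to -0.02 in hypertension and -0.30 to -0.21 in atherosclerosis against MI.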
